A study of Mus musculus with 36 samples.

Results

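The myeloid lineage transcription factors described here are 9 genes taken by name from a table of 36172 gene entries: Spi1, Irf8, Runx1, Cebpa, Ikzf1, Fli1, Maf, Mef2a and Mef2c. All 9 were found. Spi1 is deposited under its older symbol Sfpi1 and was matched by its identifier (20375), and the other 8 were matched by symbol. They were placed in 3 classes from general knowledge of where they are expressed in the brain. Spi1, Irf8, Runx1, Cebpa and Ikzf1 were taken as restricted to microglia, Fli1 as shared with endothelium, and Maf, Mef2a and Mef2c as shared with neurons. Each of the 9 had enough counts to be tested in every comparison.

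The values are RNA levels in mouse hippocampus, given as CPM, the estimated counts of a gene scaled to the library total and its TMM factor. All animals had the genotype Cx3cr1-NuTRAP, in which cre under the Cx3cr1 promoter, a promoter of microglia and related macrophages, is switched on by tamoxifen and tags ribosomes with a green fluorescent protein. An antibody to that protein then pulls down RNA on tagged ribosomes (translating ribosome affinity purification, TRAP), and input is RNA of the whole homogenate set aside before the pulldown. The study asked whether the age at induction alters how specific the pulldown is and which changes with age it detects. The groups, all of them induced, were input of 10 young animals with early induction (5 females, 5 males), input of 12 old animals with early induction (7 females, 5 males), input of 7 old animals with late induction (5 females, 2 males), and TRAP of those same 7 animals. The protocol gives ages of 6 and 22 months. The labels do not give the strain background or the ages at induction, and TRAP of early-induced animals was not analysed here.

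Library totals ranged from 12.9 M to 20.4 M estimated counts. The sample numbers in the titles run from 1 to 23 in the old early-induced group, from 25 to 38 in the old late-induced group and from 39 to 57 in the young group, so any effect of sample order and the group cannot be told apart in the inputs. Cx3cr1, whose promoter drives the cre, was at 25 ± 2.01 CPM (mean ± SD) in the 10 young inputs, 34.5 ± 2.04 in the 12 old early-induced ones, 39.9 ± 5.09 in the 7 old late-induced ones and 688 ± 134 in the 7 TRAP libraries. The summed level of 15 microglia markers ranged from 779 to 1150 CPM in old late-induced input and from 14000 to 22700 CPM in TRAP. All 15 passed as higher in the pulldown, by 3.89 to 4.33 on the log2 scale. Markers of other cells were present as well: the 10 neuronal markers summed to between 8200 and 9860 CPM in TRAP, and the 7 border macrophage markers to between 104 and 238 CPM. In input the neuronal markers summed to between 10000 and 11000 CPM.

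Lineage-determining transcription factors open and hold the enhancers that give a cell type its gene set. In macrophages and microglia PU.1, the product of Spi1, binds together with partners such as IRF8, RUNX1 and C/EBP factors, and the loss of PU.1 leaves the brain without microglia. Other factors of the same enhancers, above all the MEF2 family, also act in neurons, where they control activity-dependent genes and synapse number, so that their RNA in whole hippocampus comes from more than one cell type.

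Promoter sequence was available for 6 of the 9 genes in RefSeq (build GRCm38.p6), as 11 windows of 250 bases that end just before an annotated start. The windows were searched on both strands for GAGGAA (the core bound by PU.1), GAAA followed after any 2 bases by GAAA (an IRF element), TGTGGT (a RUNX site), TTGCNNAA (a C/EBP element) and CTA followed after any 4 bases by TAG (a MEF2 site). Of 32851 promoter windows of the same length, 23.3% hold GAGGAA, 2.98% the IRF element, 14% the RUNX site, 9.56% the C/EBP element and 3.2% the MEF2 site. In these genes GAGGAA matched in 4 windows, and the other motifs matched in none. The 4 windows printed here show where the match lies in 1 window each of Runx1, Mef2a and Mef2c, and, for contrast, the first window of Irf8, the gene with the largest change with age, which has no match. Capitals mark GAGGAA, or TTCCTC where the match is on the opposite strand. All run 5′ to 3′ along the gene.
Irf8 (chr8:120736108-120736357, plus strand): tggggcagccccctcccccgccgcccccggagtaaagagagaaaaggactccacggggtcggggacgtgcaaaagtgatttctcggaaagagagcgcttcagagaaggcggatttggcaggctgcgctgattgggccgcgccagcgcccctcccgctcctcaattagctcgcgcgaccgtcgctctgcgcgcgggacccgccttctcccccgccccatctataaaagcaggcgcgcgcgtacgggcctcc
Runx1, second start (chr16:92697330-92697579, minus strand): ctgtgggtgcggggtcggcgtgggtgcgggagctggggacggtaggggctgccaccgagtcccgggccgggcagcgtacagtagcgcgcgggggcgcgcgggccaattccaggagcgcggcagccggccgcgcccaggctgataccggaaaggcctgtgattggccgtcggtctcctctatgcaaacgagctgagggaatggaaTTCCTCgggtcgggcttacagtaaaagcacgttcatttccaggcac
Mef2a (chr7:67372859-67373108, minus strand): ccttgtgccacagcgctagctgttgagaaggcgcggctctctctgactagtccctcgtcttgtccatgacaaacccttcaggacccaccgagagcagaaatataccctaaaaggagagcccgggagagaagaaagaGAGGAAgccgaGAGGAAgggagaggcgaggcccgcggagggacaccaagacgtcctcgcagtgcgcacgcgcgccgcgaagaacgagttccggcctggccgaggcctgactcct
Mef2c, first start (chr13:83503784-83504033, plus strand): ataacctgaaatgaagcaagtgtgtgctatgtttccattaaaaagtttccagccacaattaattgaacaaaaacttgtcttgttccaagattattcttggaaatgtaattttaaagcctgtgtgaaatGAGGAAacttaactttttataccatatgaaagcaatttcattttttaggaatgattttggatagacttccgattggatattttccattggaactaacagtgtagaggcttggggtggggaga
Counted from the annotated start, the match lies at -46 to -41 in Runx1, at -114 to -109 and -103 to -98 in Mef2a, and at -122 to -117 in Mef2c. The second window of Mef2c holds a further match at -186 to -181. No binding was measured in this study, so these matches describe the letters of the windows only.

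The pulldown was compared with input in the 7 old late-induced animals, which asks how far each factor is concentrated in RNA of the tagged cells. All 9 factors were higher in TRAP, against 30.4% of the 14596 genes tested that were higher. For 8 of them, all but Mef2c, the 7 TRAP libraries lay above all 7 inputs, against 19.6% of the genes tested. The sizes differed widely, from 23.7-fold for Spi1 to 1.29-fold for Mef2c. The microglia-restricted factors had a median log2 fold change of 4.20 (range 3.08 to 4.57), Fli1 had 3.39, and the factors shared with neurons had 0.37 to 2.32, beside a median of -0.02 over all genes tested.

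Spi1 (chromosome 2, 91096797 to 91115756; this and the following positions are those of the deposited table, build mm10) encodes PU.1, the master regulator of the myeloid lineage. In input it was at 5.05 CPM at the lowest, 7.41 at the median and 9.34 at the highest, and in TRAP at 133, 166.5 and 246 CPM. The groups did not overlap, and its log2 fold change of 4.57 ± 0.16 (SE; adjusted p in edgeR 1.48e-13) lay above the range of the microglia markers. Ikzf1 (chromosome 11, 11686213 to 11772926) encodes the zinc finger factor Ikaros of blood and immune cells. Its input level ran from 5.07 through a median of 5.76 to 6.36 CPM and its TRAP level from 100.4 through 115 to 174 CPM. No TRAP library came near the inputs, and the log2 fold change was 4.37 ± 0.11 (SE; adjusted p in edgeR 4.32e-15). Irf8 (chromosome 8, 120736376 to 120756692) encodes an interferon regulatory factor that pairs with PU.1 in macrophage development. It was at 8.49, 11.4 and 15 CPM (lowest, median, highest) in input and at 136, 173 and 317 CPM in TRAP. These groups too were separate, with a log2 fold change of 4.20 ± 0.19 (SE; adjusted p in edgeR 7.1e-12), inside the range of the markers.

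The remaining pair of microglia-restricted factors fell below that range. Runx1 (chromosome 16, 92601466 to 92826066), a core-binding factor of blood development, was at 1.38, 2.09 and 3.29 CPM in input and at 20.6, 28.2 and 42.1 CPM in TRAP (lowest, median, highest). The lowest TRAP library exceeded the highest input, and the log2 fold change was 3.77 ± 0.17 (SE; adjusted p in edgeR 7.19e-12). Its input values rest on 23 to 54 counts per library. Cebpa (chromosome 7, 35119293 to 35121931) encodes C/EBP-alpha, a leucine zipper factor that drives granulocyte and macrophage commitment and that acts also in liver and fat. It was the most abundant of the 5 in input, at 23, 34.1 and 37.2 CPM, and stood at 227, 247 and 376 CPM in TRAP. The groups were separate, with a log2 fold change of 3.08 ± 0.13 (SE; adjusted p in edgeR 1.52e-12), the smallest of the 5 and below all 15 microglia markers. The data thus do not place Cebpa, or Runx1, with the markers in the degree of enrichment, and the class name is used for these genes as a label only. Other blood cells express some of these factors too. The 8 lymphocyte markers summed to 4.55 to 6.13 CPM in TRAP, with the B cell marker Ms4a1 at 0, against 0.477 to 2.64 CPM in input, and the 1 of them that could be tested, Cd79b, was higher in TRAP (3.91, edgeR adjusted p 3.46e-10). The 6 neutrophil markers summed to 0 to 0.782 CPM in TRAP, with Ly6g and Camp at 0, against 0.898 to 4.3 CPM in input. Their part in the values of the factors was not tested.

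Fli1 (chromosome 9, 32422208 to 32541368) encodes an ETS factor of blood and endothelial cells. It was at 1.97, 2.71 and 4.38 CPM in input and at 26.5, 28.8 and 38.1 CPM in TRAP (lowest, median, highest). TRAP and input did not overlap, and the log2 fold change was 3.39 ± 0.13 (SE; adjusted p in edgeR 4e-13). Of 9 endothelial markers 8 were higher in TRAP as well, with a median log2 fold change of 1.23 and a summed level of 175 to 305 CPM against 77.0 to 115 CPM in input. None of the endothelial markers reached the log2 fold change of Fli1, since their largest was 1.70 (Pecam1). The share of Fli1 RNA that came from each cell type was not tested.

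Maf (chromosome 8, 115703253 to 115706894) encodes c-Maf, a leucine zipper factor of mature macrophages and of interneurons. Its input values were 15.5, 19.1 and 19.9 CPM and its TRAP values 80.8, 94.9 and 102 CPM (lowest, median, highest). The groups were separate, and the log2 fold change was 2.32 ± 0.07 (SE; adjusted p in edgeR 5.95e-14). All 7 border macrophage markers were higher in TRAP too, with a median log2 fold change of 3.81, and of 7 interneuron markers 1 was higher and 1 lower. Their part in the result for Maf was not tested.

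Mef2a (chromosome 7, 67233827 to 67372858) and Mef2c (chromosome 13, 83504034 to 83667079) encode MADS-box factors first described in muscle, which are expressed in neurons and in microglia. Mef2a was at 43.3, 52.4 and 55.4 CPM in input and at 83.0, 99.1 and 107 CPM in TRAP (lowest, median, highest). The libraries of the 2 kinds did not overlap, although the log2 fold change was only 0.89 ± 0.06 (SE; adjusted p in edgeR 1.13e-09). Mef2c was at 84.1, 153 and 227 CPM in input and at 163, 202 and 239 CPM in TRAP. These groups overlapped: 2 of 7 TRAP libraries lay above all inputs, and 4 of 7 inputs lay below all TRAP libraries. The log2 fold change of Mef2c was 0.37 ± 0.15 (SE; adjusted p in edgeR 0.0477), just past the threshold of 0.05. The 10 neuronal markers had a median log2 fold change of -0.18 in TRAP (range -0.40 to 0.03), beside -0.02 over all genes tested. The share of Mef2a and Mef2c RNA in TRAP that came from each cell type was not tested.

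That call for Mef2c depended on the model, the scaling and single libraries. It held in limma voom, with no filter on low counts and with an animal block, which pairs TRAP and input of an animal. It was lost under upper quartile scaling (log2 fold change 0.23, edgeR adjusted p 0.189), under scaling by library size alone (0.27, adjusted p 0.14), with RLE size factors (0.36, adjusted p 0.0528), without sex in the model (0.37, adjusted p 0.0568), in females only (0.35, adjusted p 0.16) and in DESeq2 (0.36, adjusted p 0.0767). It was also lost in 9 of 14 fits that left out 1 library: input replicates 1, 3 and 4 and TRAP replicates 1, 2, 3, 4, 6 and 7, where edgeR adjusted p-values ran from 0.0581 to 0.0996 and log2 fold changes from 0.33 to 0.39. Upper quartile scaling moved the median gene from -0.02 to -0.17, and the percentage of calls that were upward from 51.4% to 34%, and library size alone gave -0.13 and 38.3%. In all of these fits Mef2c stayed above 0 and above that median. Within animals its log2 ratio of TRAP to input, each as CPM + 1, ranged from 0.0748 to 0.945.

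**Figure D1:**
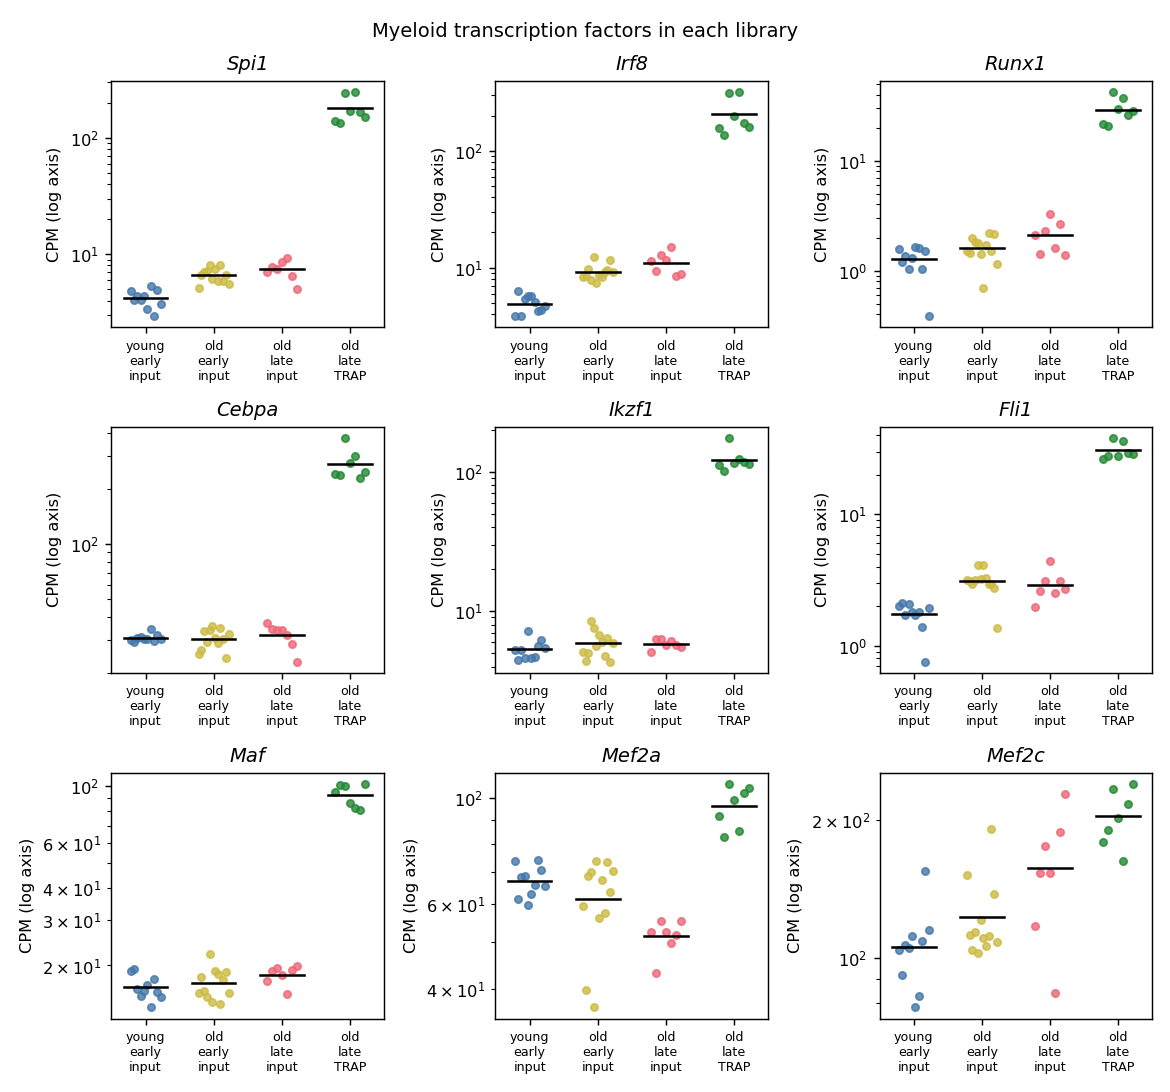
Level of each of the 9 factors in CPM (vertical log axes, a separate scale per panel) in young early-induced, old early-induced and old late-induced input and in old late-induced TRAP, with 1 point per library and a bar at the group mean. TRAP lies apart from input in 8 panels, while in the Mef2c panel the TRAP range of 163 to 239 CPM overlaps the input range of 84.1 to 227 CPM.

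Ratios within animals give the order of the fits except for Fli1 and Cebpa, whose means were nearly equal, and show which neighbours are separate. On the log2(CPM + 1) scale the mean TRAP to input ratio of 7 animals was 4.40 ± 0.334 for Spi1, 4.15 ± 0.235 for Ikzf1, 4.06 ± 0.307 for Irf8, 3.28 ± 0.445 for Runx1, 3.04 ± 0.295 for Cebpa and 3.03 ± 0.321 for Fli1 (SD, n = 7). Next came Maf at 2.27 ± 0.127, Mef2a at 0.89 ± 0.0777 and Mef2c at 0.42 ± 0.285 (SD, n = 7). Cebpa lay above Maf in 7 of 7 animals and Maf above Mef2a in 7 of 7, also with a pseudocount of 0.1 or none. Irf8 lay above Runx1 in 7 of 7 with the pseudocount of 1, but in 5 of 7 with 0.1 (difference 0.42 ± 0.471) or none (0.36 ± 0.493; SD, both chosen after the values were seen), so this step rests on the pseudocount, which lowers the ratio of a gene as rare in input as Runx1. The neighbours Spi1 and Ikzf1 (difference 0.25 ± 0.223), Ikzf1 and Irf8 (0.09 ± 0.234), Runx1 and Fli1 (0.25 ± 0.336) and Fli1 and Cebpa (-0.02 ± 0.387) held their order in 6, 5, 5 and 3 of 7 animals, and all but the first differed by less than the spread between animals (SD). With no pseudocount these 4 pairs held the order of the fits in 5, 5, 6 and 5 of 7 animals, each with a difference below its SD. Averaged over the class, the microglia-restricted factors ranged from 3.47 to 4.22 over animals and those shared with neurons from 1.07 to 1.35, beside 3.98 to 4.40 for the mean of the microglia markers. The classes were chosen by knowledge of the genes, so their separation is a description and was given no test.

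**Figure D2:**
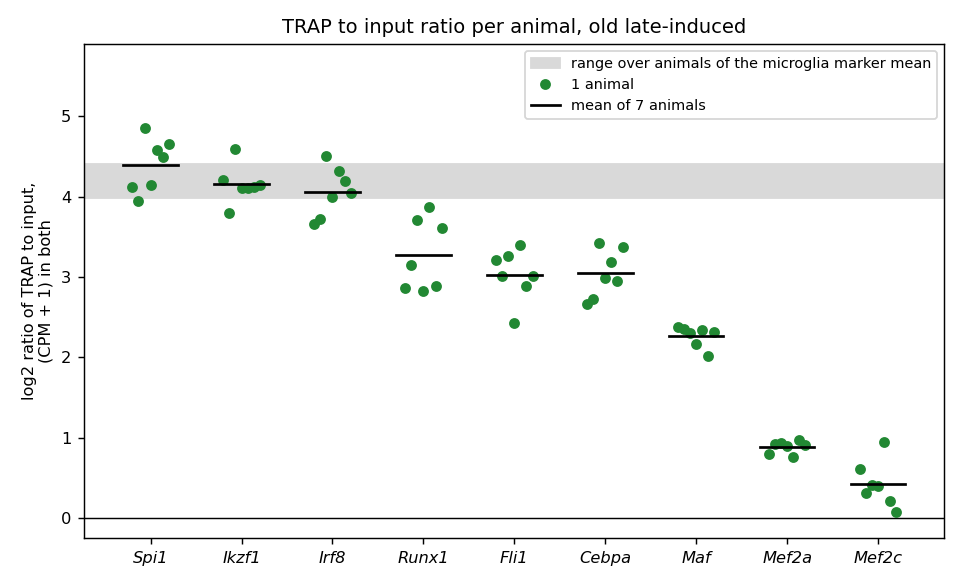
Log2 ratio of TRAP to input for each factor in each of the 7 old late-induced animals (points; (CPM + 1) in both), with a bar at the mean and a grey band over the range of the microglia marker mean, 3.98 to 4.40. Spi1, Ikzf1 and Irf8 scatter around the band, on this scale Runx1, Fli1 and Cebpa lie below it, and Maf, Mef2a and Mef2c lie lower still.

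The MEF2 factors were compared with each other directly. In 6 of 7 animals the TRAP to input ratio of Mef2c was below that of Mef2a, by a mean of -0.46 ± 0.354 on the log2 scale (SD, n = 7; range -0.83 to 0.19). The exact two-sided sign-flip permutation p was 0.0312, where 7 animals can give no less than 0.0156. The exception was old late-induced animal 5, which had the lowest Mef2c of its group in input (84.1 CPM). Leaving out animal 1, 2, 3, 4, 6 or 7 in turn gave differences from -0.51 to -0.40, each with an exact p of 0.0625. Without animal 5 the difference was -0.57 with an exact p of 0.0312, the smallest that 6 animals allow.

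The ratio of the 2 factors had a larger SD in each input group than in TRAP. As log2(Mef2c/Mef2a) it had a mean ± SD of 0.63 ± 0.251 over the 10 young inputs, 0.99 ± 0.347 over the 12 old early-induced ones, 1.53 ± 0.443 over the 7 old late-induced ones and 1.07 ± 0.103 over the 7 TRAP libraries. Its range was 0.74 to 2.02 in the old late-induced inputs and 0.93 to 1.19 in TRAP of the same animals. No test was made of this ratio.

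**Figure D3:**
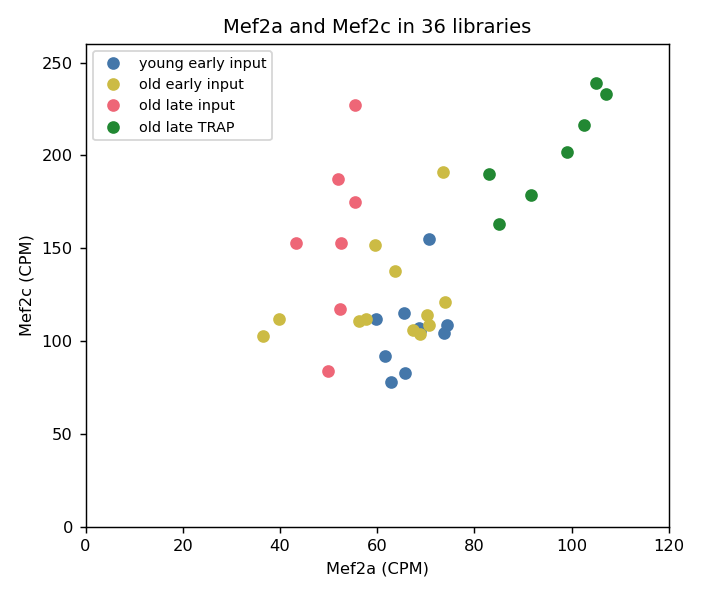
Mef2c against Mef2a in CPM (linear axes) in all 36 libraries, coloured by group. TRAP libraries keep to log2 ratios of 0.93 to 1.19, old late-induced inputs are spread vertically from 84.1 to 227 CPM of Mef2c, and old early-induced replicates 2 and 5 lie apart at 39.8 and 36.6 CPM of Mef2a.

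Levels of different genes can be set against each other only per length, for which the summed exon length of each gene in GENCODE vM21 was used. In TRAP the mean level per kilobase was highest for Cebpa (103.0 CPM per kilobase), then Spi1 (66.2), Irf8 (29.4), Ikzf1 (21.1), Mef2c (12.9), Maf (11.2), Fli1 (8.79), Mef2a (6.55) and Runx1 (2.44). In young input the order began with Cebpa (11.8 CPM per kilobase), Mef2c (6.74) and Mef2a (4.58), while Spi1 stood at 1.56 and Irf8 at 0.70. Spi1, at 66.2 against 12.9, thus exceeded Mef2c per kilobase in TRAP and lay below it in input. These values are approximate, because the deposited gene models differ from GENCODE: the exons of Maf sum to 8241 bases there. The deposited entry of Maf, from 115703253 to 115706894, is shorter than that. Its level per kilobase is therefore too low here, and its place in the order is not settled. The lengths join the exons of all annotated transcripts of a gene, from 2636 bases for Cebpa to 15715 for Mef2c. Which transcripts were present was not determined, so the order of the other factors is approximate as well.

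Age was compared first at early induction, between 12 old and 10 young inputs. The factors Irf8, Fli1 and Spi1 rose and the other 6 did not pass the test, against 13% of 14948 genes that were higher and 12.6% that were lower. Irf8 was at 3.86, 4.90 and 6.36 CPM in young and at 7.40, 8.93 and 12.4 CPM in old early-induced input (lowest, median, highest). Every old library lay above every young one, which held for 0.85% of all genes, and the log2 fold change was 0.90 ± 0.11 (SE; adjusted p in edgeR 6.3e-07). Spi1 was at 2.96, 4.22 and 5.36 CPM in young and at 5.14, 6.59 and 8.11 CPM in old input. The ranges met only at their edges, and the log2 fold change was 0.66 ± 0.11 (SE; adjusted p in edgeR 4.92e-05). Fli1 was at 0.755, 1.80 and 2.10 CPM in young and at 1.36, 3.12 and 4.13 CPM in old input. A single old library lay within the young range, and the log2 fold change was 0.86 ± 0.16 (SE; adjusted p in edgeR 0.000198), from only 12 to 35 counts per young library. In whole tissue a change in the number of cells of a type and a change in RNA per cell cannot be told apart.

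The factors that did not pass at early induction had log2 fold changes of 0.32 ± 0.19 for Runx1 (SE; adjusted p in edgeR 0.218), 0.21 ± 0.13 for Mef2c (0.234), 0.14 ± 0.11 for Ikzf1 (0.356), 0.06 ± 0.07 for Maf (0.554), -0.01 ± 0.07 for Cebpa (0.959) and -0.14 ± 0.08 for Mef2a (0.217). Cebpa was the steadiest of the 9 in young input, at 29.6 to 34.5 CPM, and ran from 24.1 to 36 CPM in old early-induced input. Mef2a in the old early-induced inputs ranged from 36.6 through a median of 65.6 to 74.0 CPM. Its lowest values, 36.6 CPM in replicate 5 and 39.8 CPM in replicate 2, lay far under the next one at 56.2 CPM.

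With late induction, 7 old inputs were compared with the same 10 young inputs, so the 2 age comparisons share their controls. The young animals were induced early and no young late-induced group was used. Age and induction age therefore cannot be told apart in this comparison. Of the 9 factors 5 rose and 1 fell, against 17% of genes that were higher and 17.5% that were lower. Irf8 was at 8.49, 11.4 and 15 CPM in the old late-induced input (lowest, median, highest), above all young libraries. Such a separation upward held for 2.41% of genes, and its log2 fold change was 1.16 ± 0.12 (SE; adjusted p in edgeR 4.27e-08). Spi1 had a log2 fold change of 0.83 ± 0.12 (edgeR adjusted p 8.51e-06) and Fli1 of 0.83 ± 0.19 (edgeR adjusted p 0.000961). Runx1 rose by 0.67 ± 0.21 on the log2 scale (SE; adjusted p in edgeR 0.0141), from 0.387, 1.33 and 1.64 CPM in young to 1.38, 2.09 and 3.29 CPM in old input, with overlap. The call for Runx1 was lost when only females were fitted (0.68, adjusted p 0.064 in edgeR) or when old late-induced input replicate 4 was left out (0.55, adjusted p 0.0508).

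The MEF2 factors moved in opposite directions in this comparison. Mef2c rose by 0.55 ± 0.15 on the log2 scale (SE; adjusted p in edgeR 0.00441), from 78.1, 106 and 155 CPM in young to 84.1, 153 and 227 CPM in old late-induced input (lowest, median, highest). The groups overlapped, with 3 of 7 old libraries above all young ones. Mef2a was at 59.8, 67.2 and 74.3 CPM in young and at 43.3, 52.4 and 55.4 CPM in old late-induced input. All 7 old libraries lay below all young ones, as in 4.58% of genes, and it fell by 0.41 ± 0.10 on the log2 scale (SE; adjusted p in edgeR 0.00163). Maf (0.19 ± 0.08, adjusted p 0.0772), Ikzf1 (0.13 ± 0.12, adjusted p 0.429) and Cebpa (0.07 ± 0.08, adjusted p 0.566) did not pass in edgeR. Maf passed without old late-induced input replicate 5 (0.22, edgeR adjusted p 0.0477).

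**Figure D4:**
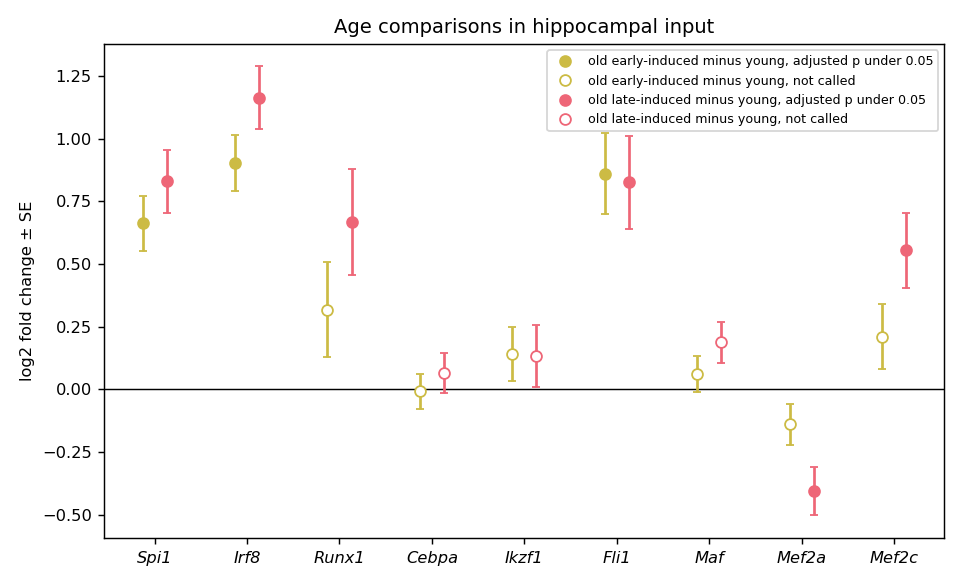
Log2 fold change of each factor in old against young hippocampal input with its standard error, for early induction (yellow) and late induction (red) of the old animals, both against the same 10 young early-induced inputs. Filled points passed an edgeR adjusted p of 0.05: Spi1, Irf8 and Fli1 passed at both inductions, and Runx1, Mef2a (downward, -0.41) and Mef2c passed at late but not at early induction. None of the 9 passed when the old groups of the 2 inductions were compared over all libraries, while Mef2a did without old early-induced replicate 5.

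Microglia markers moved with age in the same libraries. Their summed level ranged from 523 to 626 CPM in young, 716 to 883 CPM in old early-induced and 779 to 1150 CPM in old late-induced input. Of 15 markers 14 were higher at early and 15 at late induction, with median log2 fold changes of 0.47 and 0.64, and none was at 0 in any group. The endothelial markers summed to 60.8 to 93.3, 54.3 to 122 and 77.0 to 115 CPM in the same order, and 1 and 2 of 9 were higher. Of 10 neuronal markers 1 was higher at early induction and 3 were lower at late induction. Over all genes 13% were higher and 12.6% lower at early induction, and 17% and 17.5% at late induction. The endothelial counts, and the neuronal count at early induction, lie near these shares. The part of the markers in the results for the factors was not tested.

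Taking each factor relative to the mean of the 15 microglia markers in its own library, as a difference of log2(CPM + 1), separates the microglia-restricted factors from each other. Irf8 was at -2.21 ± 0.225 in the 10 young inputs, at -1.87 ± 0.158 in the 12 with early and at -1.83 ± 0.199 in the 7 with late induction (mean ± SD), a shift of 0.34 and 0.38. Spi1 shifted by 0.10 and 0.04, less than its spread between young libraries (SD 0.207). Ikzf1 shifted by -0.35 and -0.52, Cebpa by -0.48 and -0.61 and Runx1 by -0.25 and -0.19, both of these within its SD in young input (0.307). For Cebpa the shift went from 0.24 ± 0.0686 in young to -0.24 ± 0.179 and -0.37 ± 0.267, and with the marker median in place of the mean it was -0.39 and -0.50. Maf shifted by -0.41 and -0.49 and Mef2a by -0.61 and -1.02, while Fli1 (0.12 and -0.12) and Mef2c (-0.25 and -0.12) stayed within the SD of their young libraries. With a pseudocount of 0.1 the shift of Runx1 was -0.11 and 0.05 and that of Fli1 0.33 and 0.06, so the sign at late induction turned for both. The 15 markers did not rise alike: their log2 fold changes ran from 0.09 to 0.91 at early and from 0.23 to 1.19 at late induction. The size and sign of a shift therefore depend on which markers form the mean. These are descriptions with no test.

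Between TRAP and input of the same animals, this relative level differed by 0.23 for Spi1, -0.01 for Ikzf1 and -0.11 for Irf8. The differences of the others were larger: -0.90 for Runx1, -1.13 for Cebpa, -1.14 for Fli1, -1.90 for Maf, -3.28 for Mef2a and -3.74 for Mef2c. With a pseudocount of 0.1 the difference was -0.46 for Runx1 and -0.83 for Fli1.

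**Figure D5:**
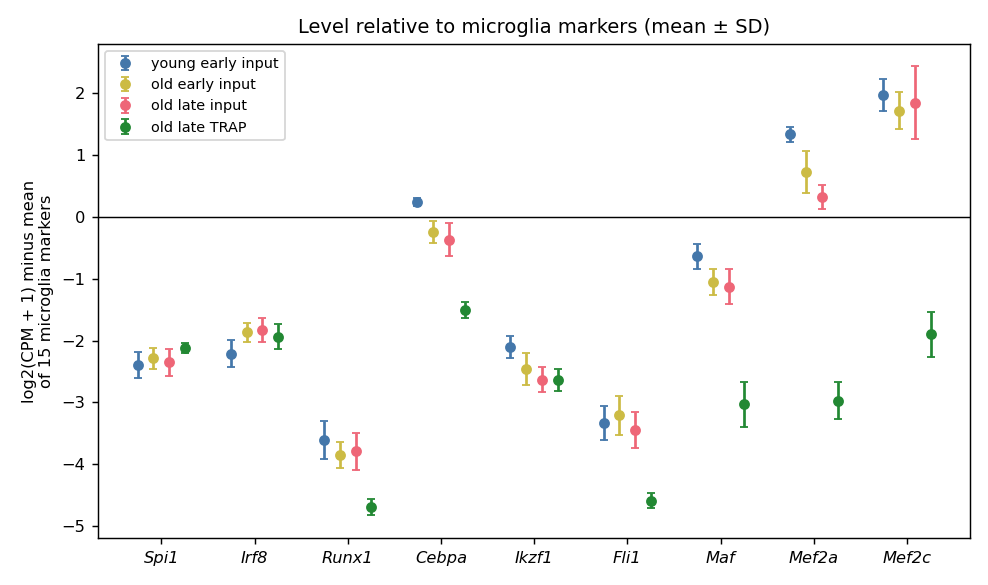
Level of each factor relative to the microglia markers (log2(CPM + 1) minus the mean of the same over 15 markers; mean and SD per group; 10, 12, 7 and 7 libraries). Irf8 moves up from -2.21 in young to -1.83 in old late-induced input, Cebpa moves down from 0.24 to -0.37, and the TRAP points of Maf, Mef2a and Mef2c lie far below their inputs.

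Induction age was compared between the 7 late-induced and 12 early-induced old inputs, which is also the test of whether the age effects differ. None of the 9 factors passed in edgeR, where 5 genes (0.0334% of those tested) were called in either direction. At an unadjusted p under 0.05 there were 3: Mef2a with -0.27 ± 0.09 (SE; edgeR p 0.00677, adjusted p 0.247), Mef2c with 0.34 ± 0.14 (p 0.0209, adjusted p 0.336) and Irf8 with 0.26 ± 0.12 (p 0.0333, adjusted p 0.383). DESeq2 and limma voom also called 0 of the 9. The call for Mef2a changed with the libraries used. Mef2a passed without old early-induced replicate 5 (-0.31, edgeR adjusted p 0.0432) and without replicates 2 and 5 together (-0.35, adjusted p 0.000759; chosen after the values were seen). These are its low libraries, both of males. It also passed in females only (-0.34, edgeR adjusted p 0.0121), where calls over all genes rose as well, to 182 of 14862 from 5 of 14948. The reason for the change was not tested.

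Sex was compared over the 29 inputs with group in the model. No factor differed between males and females in edgeR, where 0.174% of genes did. At an unadjusted p under 0.05 were Mef2a (male minus female log2 fold change -0.16 ± 0.07, edgeR p 0.0346, adjusted p 0.424) and Runx1 (-0.35 ± 0.17, p 0.0411, adjusted p 0.443). DESeq2 and limma voom called none of the 9 either.

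How the factors varied together was described by Pearson's r of log2(CPM + 1) over the 29 inputs, which share a group structure, and again after removing the group means. Spi1 and Irf8 had r = 0.83, and 0.35 within groups. Spi1 and Fli1 had 0.66, and 0.22 within groups, so much of either value came with the difference between groups. Mef2a and Mef2c had -0.10, and 0.27 within groups. Among 12944 genes, those most like Spi1 included Cyba (0.89, a subunit of the phagocyte oxidase) and Lyz2 (0.87, lysozyme), with 0.60 and 0.51 within groups. Those most like Irf8 were Lyz2 (0.91), Ctsz (0.91, a cathepsin) and Gjb1 (0.90, a connexin of oligodendrocytes), with 0.49, 0.56 and 0.48 within groups. Those most like Runx1 included Shc4 (0.69, and 0.54 within groups) and Wipf1 (0.68, and 0.55 within groups). Without the 2 libraries farthest from the median of the factor, these values ranged from 0.58 (Shc4) to 0.91 (Lyz2 with Irf8).

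The MEF2 factors had the closest partners, and these held within groups. Those most like Mef2a included Megf9 (0.95) and Grin2a, a subunit of the NMDA receptor (0.94), with 0.93 and 0.93 within groups and 0.91 and 0.90 without the 2 farthest libraries. Mef2c was most like Sowahb (0.95), Cacng3, an auxiliary subunit of glutamate receptors (0.93), and Plxnd1, a semaphorin receptor (0.90), with 0.93, 0.90 and 0.90 within groups. Partners of the other factors were weaker: Urm1 (0.79), Mid1ip1 (0.79) and Tap2 (0.78) for Fli1, Nfe2l2 (0.76), Kctd11 (0.76) and Rlbp1 (0.73) for Maf, Lrrc61 (0.69), Eif3e (0.64) and Dnajc9 (0.64) for Cebpa, and 2210013O21Rik (0.68), Gtl3 (0.67) and Bcl10 (0.65) for Ikzf1. Without the 2 libraries farthest from the median of the factor, the values of these weaker partners ran from 0.44 (Dnajc9) to 0.80 (Mid1ip1). Each gene named is among the 3 highest of 12944 values for its factor and is given as a description only.

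Relatives of the 9 factors in the same gene families give a comparison outside the list. Of 33 such genes 28 could be tested in TRAP, and 19 were higher (against 30.4% of all genes tested) and 3 lower, with a median log2 fold change of 0.94. The largest increases included Irf5, an interferon regulatory factor of inflammatory macrophages (4.42, edgeR adjusted p 3.17e-14), and the ETS factor Ets1 (2.67, adjusted p 1.17e-12). Those lower were Runx2 (-0.85, edgeR adjusted p 1.23e-06), Ikzf2 (-0.42, adjusted p 0.00869) and Ikzf4 (-0.41, adjusted p 0.0142). Irf5 went from 5.63 ± 1.22 CPM before the pulldown to 122 ± 26.6 CPM after it, and Runx2 from 11.9 ± 1.32 to 6.63 ± 0.845 CPM (SD, n = 7 each). Members of 1 family thus lay on both sides: Runx1 was higher in TRAP by 3.77 and Runx2 lower.

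With age 5 of 26 tested relatives rose and 4 fell at early induction, and 6 rose and 4 fell at late induction. Beside 13% of all genes higher and 12.6% lower at early, and 17% and 17.5% at late induction, these shares are near the background and show nothing about the relatives as a set. Those named by size at early induction included Irf7 (0.82, edgeR adjusted p 0.0124), an interferon-inducible relative of Irf8, and Elf1 (0.28, adjusted p 0.0389) upward, and Cebpb (-0.57, adjusted p 9.56e-05), Ikzf4 (-0.28, adjusted p 0.0277) and Runx2 (-0.23, adjusted p 0.0429) downward. At late induction they were Irf7 (0.89, edgeR adjusted p 0.0116), Maff (0.66, adjusted p 0.0354) and Irf5 (0.55, adjusted p 0.00678) upward, and Runx2 (-0.27, adjusted p 0.0323), Mef2d (-0.25, adjusted p 0.0251) and Ikzf5 (-0.20, adjusted p 0.0043) downward. The mean of Mef2d was 112 ± 5.56 CPM over the 10 young inputs and 95.0 ± 14.6 CPM over the 7 late-induced ones (SD). The count at early induction was 5 without old early-induced replicate 5, 5 without replicate 7 and 2 in females only, against 9. Over all genes 1198 passed at early induction in females only, against 3826 in all animals.

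Other regulators of myeloid cells, a list of 28 genes, were mostly higher in TRAP: 20 of 25 tested were higher (30.4% of all genes) and 2 lower, with a median log2 fold change of 1.05. Hhex, a homeobox factor (4.30, edgeR adjusted p 7.72e-12), Lyl1, a helix-loop-helix factor of blood progenitors (3.73, adjusted p 5.54e-15), and Elf4 (3.55, adjusted p 9.87e-12) led the list. Myb (-1.06, edgeR adjusted p 0.0298) and Bhlhe40 (-0.15, adjusted p 0.0271) were lower. With age 11 of 25 rose and 0 fell at early induction, and 15 rose and 1 fell at late induction, against 13% of all genes higher at early and 17% at late induction. The immediate early gene Egr2 (1.90 and 2.07, edgeR adjusted p 4.57e-08 and 3.54e-08), the stress factor Atf3 (1.30 and 1.83, adjusted p 2.04e-05 and 3.8e-07) and Klf4 (1.08 and 1.22, adjusted p 0.000104 and 6.73e-05) rose most, and Zeb2 fell by 0.18 at late induction (adjusted p 0.0439). Egr2, which neurons also express, had means of 6.75 ± 1.53 CPM before and 6.29 ± 1.62 CPM after the pulldown (SD, n = 7 each). The counts were 5 and 9 in females only. Calls over all genes fell there as well, from 3826 to 1198 at early and from 5151 to 2787 at late induction.

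Known target genes of PU.1, a list of 11, were all higher in TRAP (30.4% of all genes were), with a median log2 fold change of 4.09. Fcgr1, an Fc receptor (4.43, edgeR adjusted p 2.81e-13), Ncf1, an oxidase subunit (4.36, adjusted p 2.25e-15), and the kinase gene Btk (4.35, adjusted p 3.11e-14) were the largest. With age 7 of 10 tested rose and 1 fell at either induction, against 13% of all genes higher at early and 17% at late induction, with median log2 fold changes of 0.35 and 0.44, beside 0.007 and 0.011 over all genes. Cybb, the catalytic subunit of the phagocyte oxidase, rose by 1.46 and 2.19 (edgeR adjusted p 0.000116 and 9.24e-07), Fcgr1 by 0.83 and 1.06 (5.58e-05 and 7.13e-06) and the integrin gene Itgb2 by 0.72 and 0.99 (0.000126 and 8.51e-06). Csf2ra, a receptor subunit, fell by 0.33 and 0.36 (edgeR adjusted p 0.00558 and 0.00746). Csf1r stands in this list and among the microglia markers, and those markers rose in the same libraries with the values given above.

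The class IIa histone deacetylases, which bind MEF2 factors and repress their targets, were the final list, with 4 genes. In TRAP 1 was higher, Hdac5, by 0.31 (edgeR adjusted p 0.000204), from 214 ± 16.4 to 267 ± 18.0 CPM (SD, n = 7 each). With age Hdac4 fell by 0.63 at early and 0.71 at late induction (edgeR adjusted p 0.000131 and 0.000165), from a mean of 24.4 ± 2.66 CPM over 10 young inputs to 15.9 ± 4.00 CPM over 12 and 15.3 ± 2.73 CPM over 7 old ones (SD). The other 3 did not pass at either induction. At late induction 2 of 4 passed, 1 higher and 1 lower, in some fits that left out 1 library. These left out young input replicate 3, old late-induced input replicate 4 or 5, or old early-induced replicate 5 or 10. Over all genes 30.4% were higher in TRAP, and 12.6% and 17.5% were lower at early and late induction. Beside these shares the counts show nothing about the 4 genes as a set.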

How the data were processed

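PolyA RNA of hippocampal input and TRAP was sequenced. The values are estimated counts of genes, which the authors deposited in columns marked raw per the file headers; 77.2% of nonzero values are not whole (tolerance 1e-06). The submitters' processing notes name mm10 and DESeq2. Aligner, counter and strand handling are not given in the sources used here. Reads of overlapping or antisense genes may be shared. Entries overlapping Irf8 (Gm19562) and Mef2c (Gm19363) have a mean count of 0.

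Columns were mapped to samples by the labels. Estimated counts were rounded and tested with edgeR 4.0.16 in R 4.3.3 (filterByExpr by group with a minimum count of 10, TMM, glmQLFit, glmQLFTest), and calls had a Benjamini-Hochberg adjusted p under 0.05 over all genes tested. TRAP was fitted on 14 libraries with sex as covariate, and the other contrasts were taken from a joint fit of the 29 inputs with group and sex. Standard errors came from the quasi-likelihood F statistic. A first run filtered by design instead of group. It was replaced after its results were seen, and calls for the 9 factors were the same. The single-value test was an exact sign-flip permutation in scipy 1.17.1. Of the gene identifiers, 32891 were found in RefSeq GRCm38.p6.

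TRAP and input of an animal were paired by the animal number in the labels. Their deviations from group means correlated at 0.399 to 0.573 over 13109 genes, against a median of -0.114 between different animals. No 2 libraries of a group agreed within sampling noise (chi-square per degree of freedom 3.66 to 47.4). P-values measure the spread between libraries of a group, each from another animal. The main TRAP fit did not pair TRAP with input of an animal. The animal block did, and all 9 factors passed under it. The number of counts limits Runx1 (5 to 28 per young library) and Fli1 (12 to 35), and with reads that carry no molecular identifiers this covers counting error only.

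The 9 factors and all lists were chosen with earlier results of these data known. Named were all 9 factors, the 3 called genes with the largest increase and decrease per list and comparison, and the 3 genes most correlated with each factor. Results of some genes that this rule names are not reported here. Tests run on simulated data with 200 changed genes recovered 89% of genes changed by a log2 of 1 in TRAP on 14596 genes, and 94% in old early-induced, 85% in old late-induced against young input and 96% between the old inputs on 14948 genes. Recovery at 0.5 was 68%, 62%, 66% and 75%, and false calls were 7.6%, 4.9%, 1.9% and 2.3% of calls. Alternatives were other scalings (RLE, upper quartile, library size), no filter, DESeq2 1.42.0, limma voom 3.58.1, other covariates or groups, females only, an animal block, and each library left out.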

Additional observations from a re-analysis of the deposited data

Results flagged for a closer look

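Each factor in young input, old late-induced input and TRAP, and its ratio within animals, was screened on the log2 scale for a library far from the rest by Dixon's 95% limit. Of these 36 sets of values 4 had such a library, where chance gives about 1 in 20, or 1.8. Runx1 in young input replicate 10 was lowest at 0.387 CPM, with the next at 1.03 CPM. Fli1 in young input replicate 9 was lowest at 0.755 CPM, with the next at 1.39 CPM. Ikzf1 in TRAP replicate 3 was highest at 174 CPM, with the next at 122.5 CPM. Mef2a in old late-induced input replicate 2 was lowest at 43.3 CPM, with the next at 49.9 CPM. The old early-induced group of 12, which holds the low Mef2a values of replicates 2 and 5, is too large for this screen. Leaving out any of these 4 libraries changed no call of the factor concerned in the comparison it enters.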

How the results depend on the processing

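Counts that moved by over 1.5 times were these. Under the animal block, which pairs TRAP and input, 2 MEF2 corepressors passed in place of 1, and no call for the 9 factors changed. In females only, at early induction 2 family relatives and 5 other regulators passed (9 and 11 in all animals), and at late induction 3 and 9 (10 and 16). Over all genes 1198 and 2787 passed in females only, against 3826 and 5151 in all animals. At late induction 2 MEF2 corepressors passed in place of 1 under upper quartile scaling, library size alone, DESeq2, females only, only the groups compared, and without old early-induced replicates 2 and 5. In each of these fits 1 was higher and 1 lower. Between the old inputs, 1 in place of 0 passed among the 9 factors (females only; without replicates 2 and 5), family relatives (DESeq2; without 2 and 5), other regulators (females only; without 2 and 5) and PU.1 targets (without 2 and 5). Over all genes 182 passed between the old inputs in females only and 58 in DESeq2, against 5 in the main fit. For sex, 1 in place of 0 passed among other regulators (DESeq2) and PU.1 targets (DESeq2; without 2 and 5). The cause was not tested.

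Log2 fold changes that changed sign were not called. For Cebpa they were 0.0103 at early induction under upper quartile scaling, -0.0387 at late induction and -0.00323 between old inputs in females only, and -0.0227 for sex in early-induced animals. Mef2a was 0.0206 at early induction in females only. Ikzf1 between old inputs was 7.64e-06 by library size, 0.0273 in limma voom, 0.00213 without sex, 0.0183 in females only, 0.00398 with only the groups compared and 0.00807 without replicates 2 and 5. Fli1 between old inputs was 0.20 in females only. Spi1 for sex was -0.0848 without group and -0.0232 without replicates 2 and 5. Relative to the microglia markers at a pseudocount of 0.1, the shifts of Runx1 (0.05) and Fli1 (0.06) at late induction also turned, and the Irf8 minus Runx1 ratio was 0.42, and 0.36 with none.

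Leaving out 1 library gave 8 to 9 of the factors called in TRAP, 3 to 3 at early induction, 5 to 7 at late induction, 0 to 1 between old inputs and 0 to 0 for sex. Family relatives ran from 5 to 10 at early induction and from 0 to 1 between old inputs (1 without old early-induced replicate 5), MEF2 corepressors from 1 to 2 in TRAP (2 without TRAP replicate 2) and from 1 to 2 at late induction, PU.1 targets from 0 to 1 for sex (1 without young replicate 5), and the Mef2c minus Mef2a difference from -0.571 to -0.4. Signs changed for Cebpa at early induction (-0.0369 to 0.0206), for Ikzf1 (-0.0455 to 0.0579) and Fli1 (-0.168 to 0.0845) between old inputs, and for Spi1 by sex (-0.021 to 0.0457).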
